A study of Mus musculus with 15 samples.

Results

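The step from T60 to T90 of muscle dissociation was examined here in the stem cells of mouse skeletal muscle, which lie under the sheath of the fibres and are known as satellite cells. It compares 3 libraries labelled T90 (90A, 90B and 90C) with 4 labelled T60 (60A, 60B, 60C and 60D), which are 7 of the 22 bulk libraries of the series, over all 8059 genes of the deposited table. The libraries were taken by their time labels alone, with no measured value used. Both groups are labelled as bulk stem cells from dissociated muscle that were fixed. By the labels' protocols the fixative was PFA and the dissociating enzymes were collagenase and dispase, so enzyme and fixative are shared by both groups and by the other dissociated time points. The labels give no unit for the time numbers, which were taken as minutes, and no strain, age or sex. The sources used here do not say how bulk cells were isolated.

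The labels name 15 samples, of which 6 are bulk time points running from T0, labelled as intact, to T120, and the 9 samples of single nuclei or single cells were not analysed here. Each time point is 1 labelled sample with several lettered libraries, and nothing in the labels says whether the libraries came from separate animals. The p-values below therefore measure the spread between libraries, which may be technical. The RNA kit was one for formalin-fixed material, and the libraries were of total RNA, stranded and made from low input.

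As background, muscle stem cells rest outside the cell cycle in intact muscle, where PAX7 marks them and Notch signalling helps to hold them at rest. On activation they make MYOD1, enter the cell cycle and build ribosomes, while PAX7 declines in the cells that go on to differentiate. Immediate early genes such as Fos, Jun and Egr1 are switched on by signals within minutes without new protein synthesis, and their short-lived transcripts then disappear again. Delayed early genes, FOSL1 among their products, follow when those first factors have been made.

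The promoter sequences of 4 genes that the results turn on are shown here, 3 of them (Fos, Jun and Irf1) from genes that fell in this step and 1 (Gclm) from a gene that rose. Each is the stretch of 250 bases before the gene's start in RefSeq (build GRCm38.p6), printed 5′ to 3′ on the gene's strand. Only stretches with at least 1 motif match and wholly outside the annotated gene were printed, so each carries a match by selection. Capitals mark matches to known binding motifs of transcription factors. In Fos (chr12:85473640-85473889, plus strand) they mark an NF-kB site beginning 214 bases before the start and a CAGCTG E-box, the form bound by myogenic factors, 22 bases before it. In Jun (chr4:95052223-95052472, minus strand) they mark a heat shock element 128 bases before the start. In Irf1 (chr11:53769764-53770013, plus strand) they mark a CAGCTG E-box at 139 bases and an NF-kB site at 12 bases. In Gclm (chr3:122245307-122245556, plus strand) they mark an element of the antioxidant factor NRF2 at 134 bases, which reads as TGACNNNGC on the opposite strand.
Fos: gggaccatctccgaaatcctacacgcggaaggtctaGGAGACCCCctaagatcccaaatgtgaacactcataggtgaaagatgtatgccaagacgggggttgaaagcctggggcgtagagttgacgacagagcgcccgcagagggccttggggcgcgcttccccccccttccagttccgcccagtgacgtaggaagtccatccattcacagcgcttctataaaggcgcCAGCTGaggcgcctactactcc
Jun: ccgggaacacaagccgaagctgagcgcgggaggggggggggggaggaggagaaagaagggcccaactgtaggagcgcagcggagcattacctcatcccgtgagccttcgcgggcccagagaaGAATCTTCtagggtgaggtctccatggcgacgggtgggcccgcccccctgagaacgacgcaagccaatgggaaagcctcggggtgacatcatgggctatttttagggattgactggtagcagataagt
Irf1: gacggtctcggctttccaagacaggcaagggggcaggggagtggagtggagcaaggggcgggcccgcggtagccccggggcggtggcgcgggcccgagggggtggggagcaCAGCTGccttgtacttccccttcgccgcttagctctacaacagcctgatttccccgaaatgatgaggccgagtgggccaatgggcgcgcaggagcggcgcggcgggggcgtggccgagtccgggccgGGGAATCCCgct
Gclm: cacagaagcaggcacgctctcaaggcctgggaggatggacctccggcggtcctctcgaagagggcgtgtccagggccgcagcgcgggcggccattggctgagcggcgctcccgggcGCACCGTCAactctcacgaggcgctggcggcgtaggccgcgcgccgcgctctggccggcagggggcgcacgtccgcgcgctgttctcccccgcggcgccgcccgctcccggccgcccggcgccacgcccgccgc

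A further sequence belongs to the feature with the lowest log2 fold change of the step, Mir6236, which lies on chr9:110281287-110281409 (plus strand, 1 exon of 123 bases, annotated as a miRNA). The mature miRNA that RefSeq places inside it, at chr9:110281353-110281371, has its seed (bases 2 to 8) in capitals.
mmu-miR-6236: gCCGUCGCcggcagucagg

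Motifs of 8 kinds were looked for on both strands of the 250 bases before the start in each RefSeq window. They were TGANTCA (AP-1), TGACGTCA (CRE), TGACNNNGC (NRF2), GAANNTTC (heat shock element) and the E-box CAGCTG of myogenic factors. The others were the E-box CACGTG of MYC and its relatives and, by name, the CArG box and the NF-kB site. AP-1 and NRF2 matches can overlap. Of the tested genes 6140 had a window, as had 90 of the 130 genes that rose and 93 of the 130 that fell at least 2-fold. The CAGCTG E-box stood in at least 1 window of 24.7% of the fallen and 15.6% of the raised genes that had a window, beside 13.5% over tested genes and 14.7% over all 27025 genes with a window. The NF-kB site stood in 15.1% and 18.9%, beside 12.7% and 9%. The AP-1 site stood in 3.23% of the fallen and 8.89% of the raised genes, beside 5.13% and 7.82%. The CACGTG motif stood in 10.8% and 15.6%, beside 11% and 6.86%. The NRF2 element stood in 15.1% of the fallen and 12.2% of the raised genes, beside 14.2% and 11.5%. The heat shock element stood in 6.45% and 6.67%, beside 5.85% and 7.73%. For the CRE the shares were 1.08% and 4.44%, beside 3.47% and 1.77%, and for the CArG box 0% and 3.33%, beside 1.64% and 1.62%. These shares are a description, and a match in letters is not a bound site.

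Across the 7 libraries the listed counts ran from 13006535 to 17938116 at T60 and from 14043660 to 27826437 at T90. On the first principal component of log CPM (CPM are counts scaled to a common library total with TMM factors), which held 50.6% of the variance, the T60 libraries lay between -28.2 and -9.95 and the T90 libraries between 12.9 (90B) and 32.1 (90A), so that 90B stood nearest to T60. For a slope on GC content, log2 expression was taken in each library as its difference from the gene's mean over all 22 libraries. The slope of this difference was 0.0888 to 0.126 per 10% of GC in the T60 libraries. It was -0.0822 in 90A, 0.0498 in 90B and -0.157 in 90C. The mean signal per kilobase of 6 long genes of other tissues, a measure of background reads, was 0.0535 to 0.105 CPM at T60, 0.0734 in 90B, 0.0980 in 90C and 0.274 in 90A. All 14 satellite cell markers were listed, with a summed level of 9554 to 10704 CPM at T60 and 9985 to 10145 at T90. Endothelial markers were low, at 145 to 213 CPM at T60 and 208 to 280 at T90 for the 6 of 12 that were listed, none at 0. None of these 6 was called by edgeR, 2 had an unadjusted p under 0.05, none was called by DESeq2 and 1 by limma-voom, and their median log2 fold change was 0.63. With the library letter as a block, none was called over all 22 libraries, but 5 were called as raised in the 7 libraries alone (median 1.00), as were 2 with the block and GC and length offsets and 2 without 60D. Of 15 immune markers only Cd68 was listed (14.6 to 27.4 and 9.80 to 13.8 CPM), and no tenocyte or erythroid marker was. The part of these other cells in the results was not tested. In bulk samples, fewer cells of a type and less RNA per cell cannot be told apart.

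Between T60 and T90, 1347 genes rose and 1094 fell at an adjusted p under 0.05, which is 16.7% and 13.6% of the 8059 genes and 30.3% together. Most of these shifts were small: the median log2 change was 0.56 among the raised genes and -0.62 among the fallen genes, and 130 genes in each direction (3.23% of all genes together) changed at least 2-fold. In 3120 genes (38.7%) the T90 libraries did not overlap the T60 libraries, with 1708 above and 1412 below, and 2198 of the called genes were among them. In the same fit 51% of the genes were called from T30 to T60 and 23% from T90 to T120. These neighbouring steps share libraries with the T60 to T90 step. The background measure was higher in every T30 library than in any T60 library, and its part in the T30 to T60 count was not tested. The median log2 fold change over all genes was -0.02. Of the called genes 55.2% rose, against 37.9% with upper quartile scaling, which moved the median over all genes to -0.12. Without 90A the number of called genes was 1621, of which 882 rose.

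**Figure D1:**
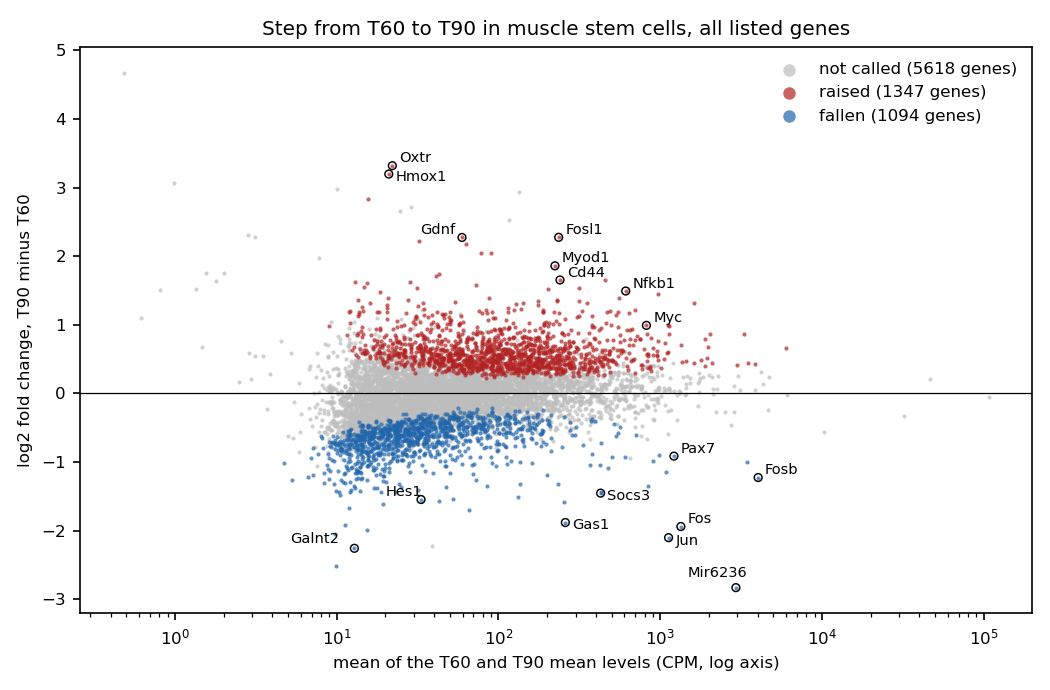
Each point is 1 of the 8059 genes, plotted by its mean level over T60 and T90 (CPM, log axis) and its log2 fold change from T60 to T90, with called genes coloured and selected genes named. Most of the 1347 raised and 1094 fallen genes lie close to 0, with Oxtr, Hmox1 and Fosl1 among the most raised and Mir6236, Galnt2 and Jun among the most fallen.

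Among raised genes that reached 20 CPM at T90, several of the largest rises were in genes weakly expressed at T60. Oxtr, the oxytocin receptor gene (chr6:112473683-112489943), stood at 4.76, 4.25, 3.65 and 3.39 CPM in 60A to 60D and 45.6, 16.9 and 57.8 CPM in 90A to 90C. All 3 T90 libraries lay above all 4 T60 libraries, with a log2 fold change of 3.32 ± 0.55 (adjusted p = 0.000215). Gdnf, which encodes a neurotrophic growth factor (chr15:7810846-7837575), stood at 22.1, 18.7, 15.5 and 25.0 CPM in 60A to 60D and 134, 73.9 and 87.8 CPM in 90A to 90C and rose by 2.27 ± 0.40 (adjusted p = 0.000337). Its T90 values were likewise all higher, with 90A highest. Rad18, a ubiquitin ligase gene of DNA damage tolerance (chr6:112619850-112696686), stood at 30.7, 32.3, 22.5 and 35.1 CPM in 60A to 60D and 140.3, 81.2 and 154 CPM in 90A to 90C. It rose in all 3 T90 libraries, with a log2 fold change of 2.05 ± 0.20 (adjusted p = 2.97e-06). Sgms2, a sphingomyelin synthase gene, rose by 2.05 ± 0.44 with a wide range among T90 libraries, from 89.7 CPM in 90B to 207 in 90A.

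Among well-expressed raised genes was Cd44, the hyaluronan receptor gene (chr2:102811141-102901665), at 88.4, 121, 129.7 and 123 CPM in 60A to 60D and 352, 292 and 449 CPM in 90A to 90C. The groups were far apart and the log2 fold change was 1.65 ± 0.18 (adjusted p = 7.92e-06). Ankrd28, a gene for a regulatory subunit of protein phosphatase 6, rose by 1.65 ± 0.21 (adjusted p = 2.62e-05) from 193, 222, 147 and 311 CPM in 60A to 60D to 794, 557 and 711 CPM in 90A to 90C. Creb3l1, a membrane-bound transcription factor gene, rose by 1.63 ± 0.44 (adjusted p = 0.00916).

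At the other end, Mir6236 stood at 6224, 3227, 4829 and 6304 CPM in 60A to 60D and 1066, 403 and 702 CPM in 90A to 90C. Its log2 fold change was -2.83 ± 0.49 (adjusted p = 0.000289), the lowest of all 8059 genes. It moved in the opposite direction in the neighbouring steps, with 1.79 from T30 to T60 and 2.28 from T90 to T120 (adjusted p = 0.00305 and 0.00242). The libraries were made from total RNA, and reads counted at this locus are not thereby shown to be the mature miRNA printed above. Galnt2, which encodes an enzyme that starts O-linked sugar chains (chr8:124231391-124345724), stood at 18.1, 24.8, 22.6 and 19.7 CPM in 60A to 60D and 3.68, 5.28 and 4.31 CPM in 90A to 90C (-2.26 ± 0.31, adjusted p = 5.7e-05). No T90 value reached a T60 value. Irf1, an interferon-response factor gene (chr11:53770014-53778374), stood at 235, 164, 221 and 160.1 CPM in 60A to 60D and 74.6, 77.6 and 53.7 CPM in 90A to 90C and was lower in every T90 library (-1.51 ± 0.31, adjusted p = 0.00124). H1f0, the gene of the linker histone of resting and differentiated cells, stood at 88.6, 77.1, 90.7 and 55.4 CPM in 60A to 60D and 24.2, 38.2 and 18.3 CPM in 90A to 90C (-1.54 ± 0.21, adjusted p = 6.07e-05). Sox8, a transcription factor gene, fell by 1.57 and Ppp1r14b, which encodes a phosphatase inhibitor, fell by 1.69 on the log2 scale.

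Of the AP-1 genes, whose products pair as FOS and JUN family dimers, 5 of 12 listed members fell and 1 rose, with a median log2 fold change of -0.58 against -0.02 over all genes. The shares were 41.7% fallen and 8.33% raised, beside 13.6% and 16.7% over all genes. Fos (chr12:85473890-85477273) stood at 2678, 1707, 3205 and 921 CPM in 60A to 60D and 476, 737 and 451 CPM in 90A to 90C. Every T90 value lay below every T60 value, and 60D was the lowest T60 library. The log2 fold change was -1.94 ± 0.37 (adjusted p = 0.000753). Jun (chr4:95049034-95052222) stood at 2159, 1535, 2682 and 929 CPM in 60A to 60D and 384, 500.4 and 392 CPM in 90A to 90C and changed by -2.10 ± 0.36 (adjusted p = 0.000314). In both genes the T60 libraries spread widely, with 60C highest and 60D lowest, while the T90 libraries were close together. Jund, another JUN family gene, stood at 1452, 1111, 1090 and 1164 CPM in 60A to 60D and 419, 525 and 476 CPM in 90A to 90C and fell as well (-1.35 ± 0.21, adjusted p = 0.000136). Fosb changed by -1.23 ± 0.34 (adjusted p = 0.0104) and Junb by -1.15 ± 0.26 (adjusted p = 0.00303).

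Fosl1, a delayed member of the FOS family (chr19:5447547-5455946), went the other way. It stood at 81.6, 102, 35.8 and 103 CPM in 60A to 60D and 522, 313 and 336 CPM in 90A to 90C, and its lowest T90 library was about 3 times its highest T60 library. The log2 fold change was 2.28 ± 0.44 (adjusted p = 0.000774). Fosl2, the other delayed member, did not pass the test: it stood at 1340, 1066, 944 and 1162 CPM in 60A to 60D and 1153, 1199 and 1118 CPM in 90A to 90C, with overlapping groups (0.04 ± 0.20, adjusted p = 0.907). Atf3, a stress-induced partner of the JUN proteins, stood at 588, 451, 414 and 365 CPM in 60A to 60D and 305, 286 and 267 CPM in 90A to 90C. Its groups did not overlap, but its log2 fold change of -0.67 ± 0.31 did not pass (adjusted p = 0.112). With the library letter as a block the adjusted p of Atf3 was 0.0111, and in the 7 libraries alone it was 0.0118 without the block.

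**Figure D2:**
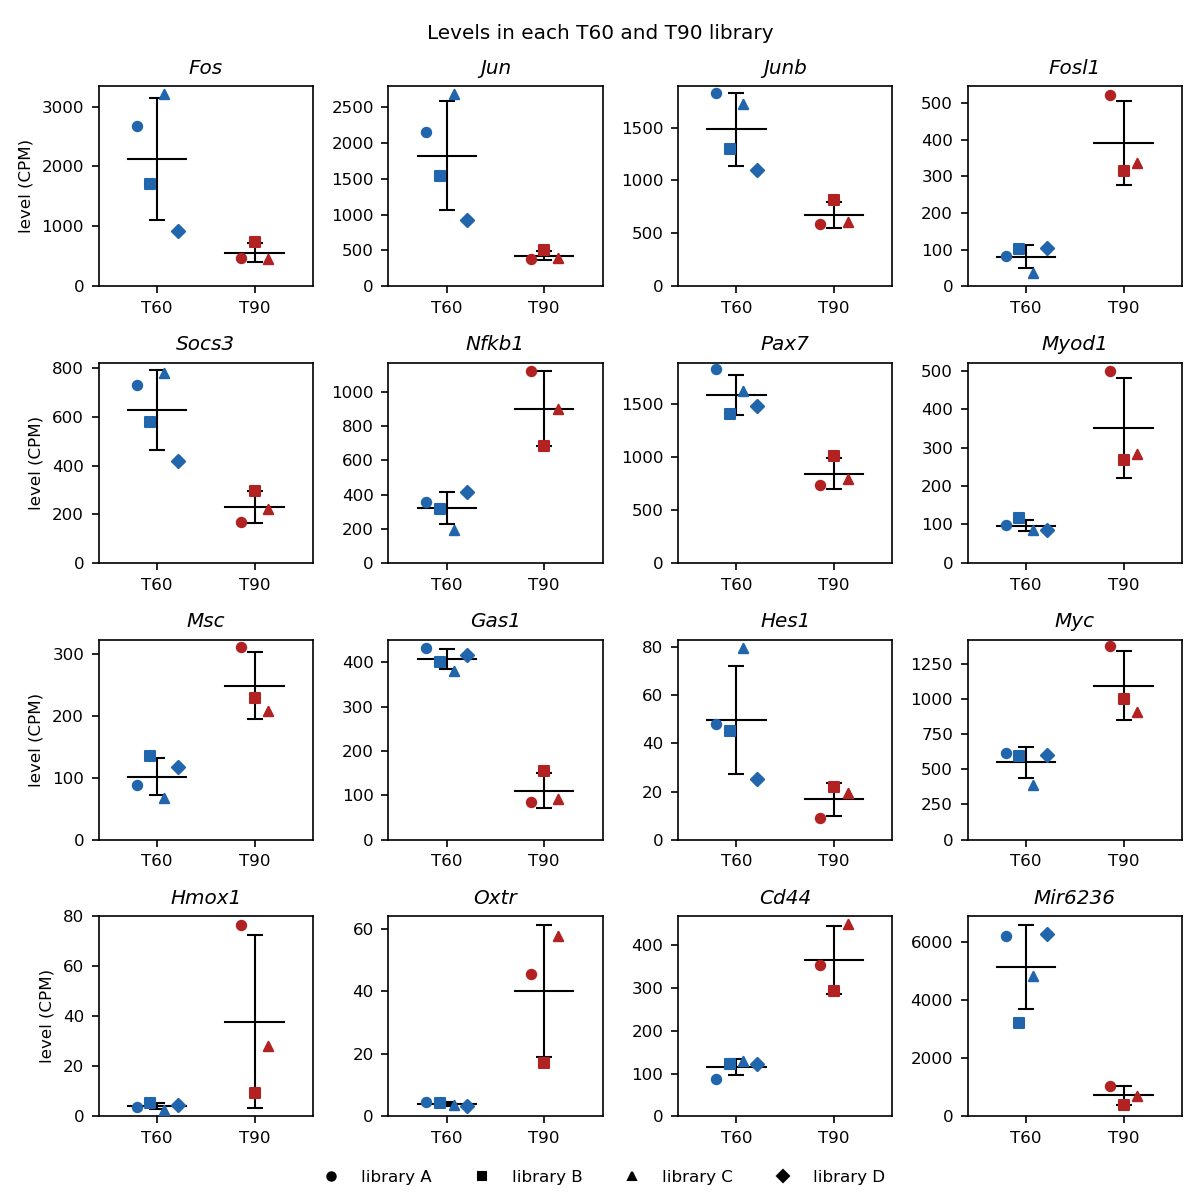
Each panel shows 1 gene's CPM (linear axis from 0) in the 4 T60 and 3 T90 libraries, the shape of a point giving its library letter, with the mean and SD of each group. Fos, Jun, Junb, Socs3, Pax7, Gas1, Hes1 and Mir6236 are lower at T90, and Fosl1, Nfkb1, Myod1, Msc, Myc, Hmox1, Oxtr and Cd44 are higher, with no overlap between the groups in any panel.

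Of the 28 other immediate early genes listed, 8 fell and 2 rose (median -0.29). These shares were 28.6% fallen and 7.14% raised, beside 13.6% and 16.7% over all genes. The raised count was 1 with the block over all libraries or without 60A, 60B, 60C, 90A or 90C, and 4 in the 7 libraries alone, with or without the block. Egr1, a zinc finger factor gene induced with Fos, stood at 5730, 3892, 5937 and 2695 CPM in 60A to 60D and 2206, 2324 and 2352 CPM in 90A to 90C (-0.99 ± 0.25, adjusted p = 0.00559). Its 3 T90 libraries were nearly equal, while 60D again lay closest to them. Zfp36, which encodes a protein that speeds the decay of AU-rich transcripts, stood at 1454, 1005, 1347 and 980.2 CPM in 60A to 60D and 585, 689 and 534 CPM in 90A to 90C (-0.99 ± 0.21, adjusted p = 0.00186). Both had lower values in every T90 library. Ccn1, a matricellular protein gene, changed by -1.32 ± 0.22 (adjusted p = 0.00027), Rhob by -0.93 ± 0.16 (adjusted p = 0.000342) and the antiproliferative gene Btg2 by -0.93 ± 0.22 (adjusted p = 0.00423). Nr4a1, an orphan nuclear receptor gene, passed narrowly (-0.90 ± 0.33, adjusted p = 0.0404), and its groups overlapped, with 921 CPM in 90B above 837 in 60D. Its call was lost without 60A, 60B, 60C, 90A or 90C and with the authors' size factors. Ier5 was one of the 2 that rose: it stood at 50.9, 46.9, 21.8 and 74.4 CPM in 60A to 60D and 160.3, 95.6 and 125 CPM in 90A to 90C (1.39 ± 0.33, adjusted p = 0.00364).

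Inhibitors that signalling induces against itself were split. Among the 14 listed genes of MAP kinase feedback, 4 rose and 3 fell (median 0.17). These shares were 28.6% and 21.4%, beside 16.7% raised and 13.6% fallen over all genes. Without 90A 2 rose and 1 fell, and 1 fell without 60A, without 90C or with GC and length offsets. Spry1, which encodes a receptor tyrosine kinase antagonist needed for stem cells to return to rest, stood at 329, 232, 339.7 and 213 CPM in 60A to 60D and 110.2, 162 and 94.6 CPM in 90A to 90C (-1.19 ± 0.23, adjusted p = 0.000859). Errfi1, an inhibitor gene of the EGF receptor, rose (0.87 ± 0.21, adjusted p = 0.00382) from 2492, 2412, 1652 and 2766 CPM in 60A to 60D to 4770, 3747 and 4267 CPM in 90A to 90C. Spry1 was thus lower and Errfi1 higher in every T90 library. Spred1 rose by 0.64 ± 0.15 (adjusted p = 0.00431). Spry2 and Dusp10 were called as raised at 0.71 and 0.72, and neither call held without 90A.

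On the side of ligands and receptors, 4 of 22 listed growth factor genes rose, a share near the 16.7% over all genes, and none fell by the edgeR test (median 0.20). Without 90A 2 rose, while in the 7 libraries alone 7 rose, or 8 with the letter block, and 1 fell in both fits. Fgfr1, an FGF receptor gene, stood at 1471, 1424, 1237 and 1594 CPM in 60A to 60D and 3132, 2232 and 2505 CPM in 90A to 90C (0.87 ± 0.16, adjusted p = 0.000408). Met, the receptor gene for hepatocyte growth factor, stood at 134, 162, 145 and 161 CPM in 60A to 60D and 234, 230.5 and 286 CPM in 90A to 90C (0.73 ± 0.14, adjusted p = 0.000559). Both were higher in all 3 T90 libraries than in any T60 library. Sdc4, a heparan sulfate co-receptor gene, and Tnfrsf12a, the TWEAK receptor gene, were called at 0.68 and 0.51, and neither call held without 90A or, for Tnfrsf12a, without 60C.

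The NF-kB list had 3 raised and 2 fallen genes of 16, with a median of -0.00 that changed sign under other settings. These shares are near those over all genes. Without 60A or 90A 1 fell, and 4 fell in the 7 libraries alone, with or without the block. Nfkb1, which encodes the p105 and p50 subunit (chr3:135584655-135691547), stood at 355, 316, 195 and 417 CPM in 60A to 60D and 1125, 684 and 899 CPM in 90A to 90C (1.49 ± 0.18, adjusted p = 2.48e-05). Its lowest T90 library exceeded its highest T60 library. The other subunit genes did not pass, with -0.06 for Rela and 0.05 for Rel, nor did the inhibitor gene Nfkbia (0.06). Tnfaip3, an inhibitor gene acting on ubiquitin chains upstream of the pathway, fell (-1.03 ± 0.23, adjusted p = 0.00231) from 209.8, 126, 157 and 113 CPM in 60A to 60D to 81.7, 79.6 and 61.5 CPM in 90A to 90C. Its partner gene Tnip1 rose by 0.46 ± 0.10 (adjusted p = 0.00283).

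In the JAK-STAT list 4 of 15 rose and 3 fell, and the median of -0.16 changed sign under other settings. The shares were 26.7% and 20%, beside 16.7% raised and 13.6% fallen over all genes. Without 90A 1 rose and without 60C 2 rose, and with the block in the 7 libraries 6 fell. Socs3, the feedback inhibitor gene of gp130 cytokine signalling, stood at 731, 577, 782 and 418 CPM in 60A to 60D and 168, 297 and 222 CPM in 90A to 90C. Its T90 values were all below its T60 values (-1.45 ± 0.30, adjusted p = 0.00122). Cebpb, a transcription factor gene downstream of the same signalling, stood at 659, 656, 481 and 721 CPM in 60A to 60D and 341, 187 and 173 CPM in 90A to 90C (-1.43 ± 0.35, adjusted p = 0.00454). Stat5b fell by 0.62. The kinase genes Jak1 and Pim1 and the factor gene Stat3 were called as raised (0.46, 0.88 and 0.60). None of these 3 calls held without 90A, and that of Stat3 was also lost without 60C.

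Among 21 listed myogenic factors 4 rose and 3 fell (median -0.13), shares near those over all genes. Without 60C or 90A 2 rose, and with the block in the 7 libraries 5 fell. Myod1, the determination factor gene that marks activation (chr7:46376474-46379099), stood at 98.8, 116, 85.7 and 85.5 CPM in 60A to 60D and 499.6, 267 and 284 CPM in 90A to 90C. The T60 libraries were tight and all T90 libraries were more than 2-fold above them (1.86 ± 0.21, adjusted p = 7.92e-06). Msc, which encodes musculin, a repressor of myogenic factors, rose with it: 88.0, 135, 67.6 and 117 CPM in 60A to 60D and 311, 228 and 207 CPM in 90A to 90C (1.29 ± 0.19, adjusted p = 8.96e-05). Pax7 (chr4:139737062-139833528), the stem cell factor gene, stood at 1834, 1408, 1624 and 1484 CPM in 60A to 60D and 732, 1008 and 789.8 CPM in 90A to 90C (-0.91 ± 0.17, adjusted p = 0.000722). Myf5, the other determination factor gene, stood at 361, 306, 332 and 297 CPM in 60A to 60D and 332, 303 and 267 CPM in 90A to 90C. Its groups overlapped and its log2 fold change of -0.11 ± 0.18 did not pass (adjusted p = 0.685). Myog, which acts later in differentiation, was low and uneven at 6.71, 36.9, 19.6 and 6.58 CPM in 60A to 60D and 0.788, 27.5 and 12.1 CPM in 90A to 90C, and its difference did not pass (-0.35 ± 0.91, adjusted p = 0.796). Myod1 and Pax7 thus moved in opposite directions in all 3 T90 libraries, while the summed level of the 14 satellite cell markers given above stayed within the T60 range.

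Of 36 listed genes tied to quiescence, the resting state, 11 fell and 1 rose (median -0.20). These shares were 30.6% fallen and 2.78% raised, beside 13.6% and 16.7% over all genes. Without 90C 7 fell, without 90A none rose, and in the 7 libraries alone 3 rose, with or without the block. Gas1, a growth arrest gene at the cell surface (chr13:60174405-60177365), stood at 433, 401, 379 and 417 CPM in 60A to 60D and 84.6, 156 and 91.3 CPM in 90A to 90C. The lowest T60 library was more than 2-fold above the highest T90 library, 90B (-1.88 ± 0.29, adjusted p = 0.000117). Foxo1, a transcription factor gene of the resting state, stood at 222, 215, 236 and 188 CPM in 60A to 60D and 87.2, 119 and 112 CPM in 90A to 90C (-1.02 ± 0.14, adjusted p = 6.55e-05). Spry1, Hes1 and Dtx4, described with their pathways, are also on this list.

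Of the 16 listed Notch genes 2 fell, a share near the 13.6% over all genes, and 1 rose, beside 16.7% over all genes (median -0.14). With upper quartile scaling 5 fell. Hes1, a direct target of the pathway (chr16:30064384-30067796), stood at 48.2, 45.3, 79.6 and 25.3 CPM in 60A to 60D and 8.94, 21.9 and 19.6 CPM in 90A to 90C (-1.55 ± 0.35, adjusted p = 0.0028). Dtx4, a gene of the Deltex family of ubiquitin ligases linked to Notch, stood at 624, 550.0, 601 and 503 CPM in 60A to 60D and 239.7, 342 and 251 CPM in 90A to 90C (-1.04 ± 0.13, adjusted p = 2.48e-05). Maml1, the co-activator gene, was the raised member (0.52 ± 0.12, adjusted p = 0.0028) with 74.8, 74.7, 63.2 and 76.0 CPM in 60A to 60D and 106, 98.1 and 107 CPM in 90A to 90C. The receptor genes did not pass, with log2 fold changes of 0.11 for Notch1, -0.24 for Notch2 and -0.16 for Notch3. Nor did the DNA-binding partner Rbpj (-0.26) or the target genes Heyl (-0.18) and Hey1 (-0.12).

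**Figure D3:**
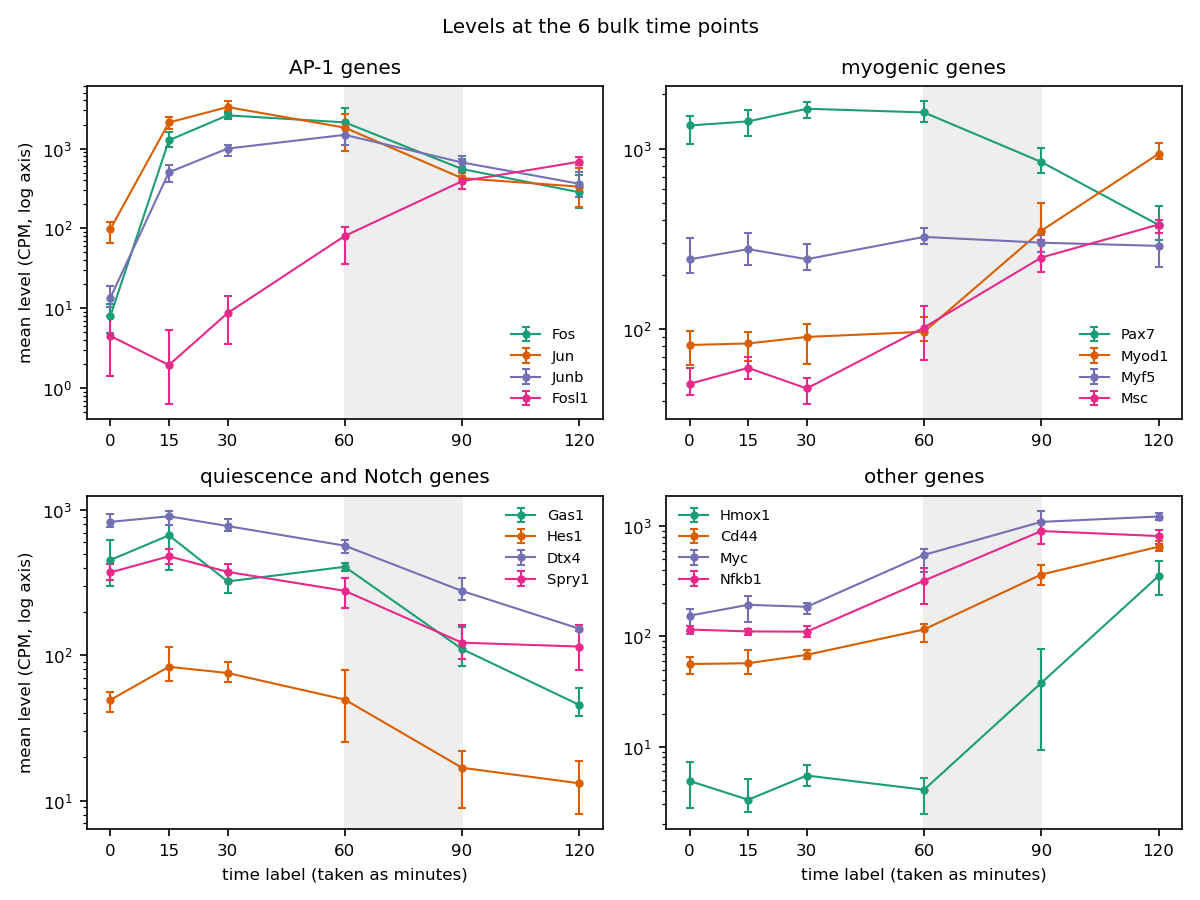
Each panel shows the mean CPM (log axis) of 4 genes at each of the 6 time points, with bars from the lowest to the highest library (3 or 4 libraries each). Between T60 and T90 Fos, Jun and Junb come down as Fosl1 goes up, Pax7 and Myod1 converge, Gas1, Hes1, Dtx4 and Spry1 come down, and Hmox1, Cd44, Myc and Nfkb1 go up.

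The step can be set beside the levels at the other time points. The mean ± SD of Myod1 was 81.5 ± 14.5 CPM in the T0 libraries (n = 4), 90.3 ± 23.1 in the T30 libraries (n = 3), 96.4 ± 14.3 in T60 (n = 4), 350.3 ± 129.6 in T90 (n = 3) and 936 ± 93.6 in T120 (n = 4). The difference from T30 to T60 did not pass (0.09, adjusted p = 0.735), and Myod1 rose from T90 to T120 (1.42, adjusted p = 0.000245). For Fosl1 the same values from T30 to T120 were 8.71 ± 5.31, 80.6 ± 31.4, 391 ± 115 and 685 ± 70.8 CPM. For Fos they were 2607 ± 247, 2128 ± 1016, 555 ± 159 and 283 ± 136 CPM, and 7.93 ± 2.75 CPM in intact tissue, so that its T90 level was still far above that of T0. Pax7 stood at 1664 ± 175, 1588 ± 187, 843 ± 146 and 377 ± 80.8 CPM from T30 to T120. Nfkb1 stood at 111 ± 12.2, 321 ± 93.5, 903 ± 220.3 and 814 ± 98.4 CPM, and its step from T90 to T120 did not pass (-0.15, adjusted p = 0.607). For Oxtr they were 15.1 ± 7.82, 4.01 ± 0.618, 40.1 ± 21.0 and 119 ± 45.4 CPM, with a log2 fold change of -1.86 from T30 to T60 (adjusted p = 0.0101). The background measure given above was higher at T30. It was 1.8975 CPM per kilobase in 30C, the lowest T30 library, against 0.0535 to 0.105 at T60. How far background reads made up the Oxtr level at T30 was not tested, so a fall from T30 to T60 is not established.

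Myc, the growth-promoting transcription factor gene (chr15:61985391-61990374), stood at 617, 596, 386 and 599 CPM in 60A to 60D and 1373, 998 and 909.8 CPM in 90A to 90C (0.99 ± 0.20, adjusted p = 0.00114). Of its list of 25 network and cell cycle entry genes 4 rose, a share close to that over all genes, and 1 fell, and the median of 0.08 changed sign under other settings. Without 60C 1 rose, without 60B or 90A 2 rose, without 90A none fell, without 90B 2 fell, and with upper quartile scaling 1 rose and 4 fell. With the block in the 7 libraries 3 fell. Ccnd1, the D-type cyclin gene of cycle entry, stood at 68.5, 101, 155 and 87.9 CPM in 60A to 60D and 61.2, 108 and 104 CPM in 90A to 90C with overlapping groups (-0.17 ± 0.33, adjusted p = 0.717). Ccnd3 fell by 0.74 on the log2 scale (adjusted p = 0.0105), and this call was lost without 90A.

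Of 40 listed ribosome biogenesis genes 21 rose and none fell, with a median log2 fold change of 0.46, against 16.7% raised and a median of -0.02 over all genes. The absence of fallen members held at an unadjusted p under 0.05 and by DESeq2 and limma-voom (0 each), for this list and for the growth factor, ribosomal protein, CCT chaperonin and matrix lists. With upper quartile scaling 1 ribosome biogenesis gene fell. By library, the median of the list stood above the T60 mean by 0.74 in 90A, 0.40 in 90C and 0.24 in 90B. Nolc1, which encodes a nucleolar chaperone, stood at 303, 346, 286 and 311 CPM in 60A to 60D and 578, 433 and 452 CPM in 90A to 90C (0.65 ± 0.12, adjusted p = 0.000407). Tsr1, a maturation factor gene of the small subunit, stood at 109.6, 127, 129 and 155 CPM in 60A to 60D and 283, 191 and 259.6 CPM in 90A to 90C (0.91 ± 0.16, adjusted p = 0.000352). Ddx21, a nucleolar helicase gene, stood at 478, 527, 473 and 593 CPM in 60A to 60D and 1043, 759.5 and 859 CPM in 90A to 90C (0.78 ± 0.16, adjusted p = 0.00115). The T90 libraries were above all T60 libraries in the 3 genes, with 90A highest and 90B lowest. Grwd1 rose by 0.92 ± 0.16, Rrp1b by 0.89 ± 0.18 and Utp4 by 0.76 ± 0.13 (adjusted p = 0.000269, 0.000911 and 0.00029). Over the other settings the count of raised members was 12 (without 90A) to 24, apart from 4 after background subtraction across all 22 libraries.

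Of the 76 ribosomal protein genes 6 rose and none fell by the edgeR test (median 0.11), below the 16.7% raised over all genes. Without 90C or with upper quartile scaling 3 rose, and without 90A 1 fell. Rpl5 and Rpl27 were among the 6, at 0.67 and 0.72 (adjusted p = 0.00135 and 0.00411). Of 52 genes with a translation initiation factor symbol 15 rose and 2 fell (median 0.19). Without 90A 7 rose, a share below the 16.7% over all genes, and without 60A, 60B, 60D or 90C 1 fell. Eif4e, the cap-binding factor gene, stood at 64.7, 72.0, 56.8 and 85.7 CPM in 60A to 60D and 122, 97.0 and 115 CPM in 90A to 90C (0.67 ± 0.14, adjusted p = 0.00124). Eif2s2, a subunit gene of the factor that brings the initiator tRNA, stood at 145, 145, 131 and 152 CPM in 60A to 60D and 219.8, 190.0 and 207 CPM in 90A to 90C (0.52 ± 0.09, adjusted p = 0.000286). Eif1ax rose by 0.69 ± 0.13 (adjusted p = 0.000465). Of 20 cytosolic aminoacyl-tRNA synthetases, which charge tRNAs, 5 rose and 1 fell (median 0.14). These shares were 25% and 5%, beside 16.7% and 13.6% over all genes. Without 60A or 90A 3 rose, and the fallen call was lost without 60C, 60D, 90A or 90C. Farsa rose by 0.82 ± 0.11, Cars by 0.91 ± 0.15 and Yars by 0.80 ± 0.17 (adjusted p = 6.55e-05, 0.000268 and 0.00162).

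**Figure D4:**
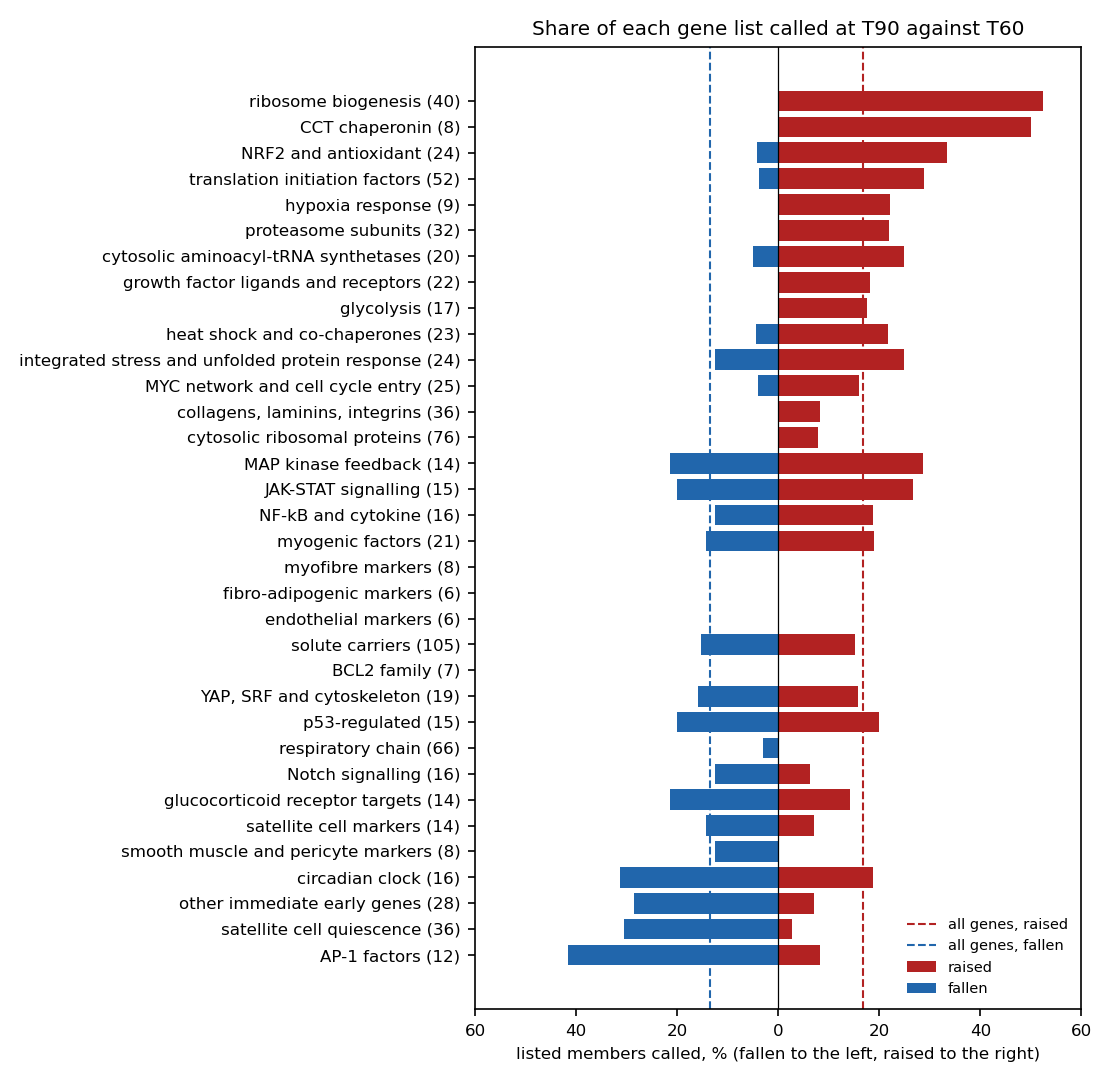
Each row is a gene list with at least 6 listed members, without the groups gathered later by symbol, showing the percent of members fallen (to the left) and raised (to the right) from T60 to T90, with the number listed in brackets and dashed lines for all 8059 genes (16.7% raised and 13.6% fallen). Among the lists drawn, the raised share reaches 21 of 40 for ribosome biogenesis (12 without 90A) and 4 of 8 for the CCT chaperonin (2 without 60A, 60C, 90A or 90C), and the fallen share 5 of 12 for AP-1 factors and 11 of 36 for quiescence genes (7 without 90C).

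The CCT chaperonin, which folds actin and tubulin, had 4 of 8 subunits raised and none fallen by the edgeR test (median 0.40). The raised share was 50%, beside 16.7% over all genes. Without 60A, 60C, 90A or 90C, or with upper quartile scaling, 2 of 8 were raised, and with the authors' size factors 7 were. Cct8 stood at 107, 129.6, 130.0 and 131 CPM in 60A to 60D and 175, 167 and 180.0 CPM in 90A to 90C (0.49 ± 0.12, adjusted p = 0.00509), with 60A low among the T60 libraries. Cct7 rose by 0.55 ± 0.13 (adjusted p = 0.00319). Of 23 heat shock and co-chaperone genes 5 rose and 1 fell (median 0.19), beside 16.7% raised and 13.6% fallen over all genes. Without 90A 3 rose, and in the 7 libraries alone 8 rose, with or without the block. The fallen call was lost with the block over all libraries and without 60B, 60C, 60D, 90A or 90C. Hsph1, which encodes the HSP110 exchange factor, stood at 220.2, 366, 248 and 351 CPM in 60A to 60D and 938, 574 and 537 CPM in 90A to 90C (1.20 ± 0.22, adjusted p = 0.000409). Hsp90aa1, the inducible HSP90 gene, stood at 465, 479.6, 364 and 444 CPM in 60A to 60D and 809, 595 and 843 CPM in 90A to 90C (0.77 ± 0.20, adjusted p = 0.00564). The inducible HSP70 pair did not pass: Hspa1a stood at 164, 182, 169 and 173 CPM in 60A to 60D and 180.3, 165 and 109 CPM in 90A to 90C (-0.19 ± 0.41, adjusted p = 0.758) and Hspa1b at 135, 183, 184 and 153 CPM in 60A to 60D and 156, 182 and 128 CPM in 90A to 90C (-0.08 ± 0.41, adjusted p = 0.902). These 2 genes are near-identical copies, so reads may have been split between them. Proteasome subunit genes had 7 of 32 raised and none fallen by edgeR, with 1 fallen at an unadjusted p under 0.05 and 1 each by DESeq2 and limma-voom (median 0.18). Their raised share was 21.9%, beside 16.7% over all genes. With the authors' size factors 11 rose. The raised members included Psmd11, a lid subunit gene, at 0.56 ± 0.09 (adjusted p = 0.000122).

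The list of the antioxidant factor NRF2, its targets and its regulator had 8 of 24 genes raised and 1 fallen (median 0.18). The shares were 33.3% raised and 4.17% fallen, beside 16.7% and 13.6% over all genes. Without 90A 5 were raised. Hmox1, the haem oxygenase gene (chr8:75093621-75100589), stood at 3.96, 5.21, 2.46 and 4.66 CPM in 60A to 60D and 76.3, 9.25 and 28.2 CPM in 90A to 90C. Every T90 library was above every T60 library, and 90A exceeded 90B about 8-fold. The log2 fold change was 3.20 ± 0.47 (adjusted p = 8.27e-05). At T120 Hmox1 reached 353 ± 102 CPM (n = 4). Txnrd1, the thioredoxin reductase gene, was more even at 418, 378, 333 and 482 CPM in 60A to 60D and 813, 552 and 808 CPM in 90A to 90C (0.85 ± 0.15, adjusted p = 0.000343). Gclm, the regulatory subunit gene of glutathione synthesis whose promoter is printed above, stood at 26.6, 24.1, 18.8 and 33.7 CPM in 60A to 60D and 67.1, 30.3 and 62.6 CPM in 90A to 90C (1.04 ± 0.22, adjusted p = 0.00186). Its 90B value lay below that of 60D, so the groups overlapped. Keap1, which encodes the protein that keeps NRF2 low, was the fallen member (-0.71 ± 0.18, adjusted p = 0.00695) with 14.7, 16.4, 21.5 and 11.9 CPM in 60A to 60D and 7.80, 11.8 and 9.84 CPM in 90A to 90C. Its call was lost in the fit to the 7 libraries alone without the block. Like most named calls, it was also lost after background subtraction across all 22 libraries.

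Within the integrated stress and unfolded protein responses, 6 of 24 genes rose and 3 fell (median 0.17), and with the block in the 7 libraries 5 fell. The raised share was 25%, beside 16.7% over all genes, and the fallen share of 12.5% was near the 13.6% over all genes. Atf6, a sensor gene of the endoplasmic reticulum, stood at 185, 181, 165 and 243 CPM in 60A to 60D and 384, 331 and 387 CPM in 90A to 90C (0.93 ± 0.12, adjusted p = 4.48e-05). Hspa5, the main chaperone gene of that compartment, stood at 1050, 1055, 787 and 1176 CPM in 60A to 60D and 1838, 1446 and 1700 CPM in 90A to 90C (0.71 ± 0.14, adjusted p = 0.000745). Eif2ak3, which encodes the sensor PERK, fell instead, from 40.8, 47.1, 51.4 and 36.9 CPM in 60A to 60D to 23.3, 30.7 and 26.5 CPM in 90A to 90C (-0.71 ± 0.13, adjusted p = 0.000417). Atf6 was thus higher and Eif2ak3 lower in all 3 T90 libraries. Ppp1r15b, a phosphatase subunit gene that undoes the PERK mark, rose by 0.74 ± 0.13 (adjusted p = 0.000349), while Atf4 (0.10) and Ppp1r15a (0.04) did not pass. Of 15 p53-regulated genes 3 rose and 3 fell (median -0.10), among them the stress-response gene Sesn1, which fell (-1.06 ± 0.19, adjusted p = 0.000461). The p53 shares of 20% each way stood beside 16.7% raised and 13.6% fallen over all genes. Without 60C, 90B or 90C 1 rose.

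Of 17 glycolysis genes 3 rose and none fell by the edgeR test (median 0.15), with 1 lower at an unadjusted p under 0.05 and none fallen by DESeq2 or limma-voom. The share raised is close to the 16.7% over all genes, and without 60C or 90C 1 rose. With the block 1 fell. Hk2, the inducible hexokinase gene, stood at 82.7, 80.5, 71.7 and 89.3 CPM in 60A to 60D and 247, 162 and 198 CPM in 90A to 90C (1.32 ± 0.28, adjusted p = 0.00157). Of 66 respiratory chain genes none rose and 2 fell by that test, and 1 was higher at an unadjusted p under 0.05, by DESeq2 and by limma-voom (median -0.16). The fallen share of 3.03% was below the 13.6% over all genes. The fallen count rose to 4 by DESeq2, 8 by limma-voom or upper quartile scaling, 5 without 90A and 9 without 90B, and was 1 without 90C. The fallen members were Ndufv3, a subunit gene of complex I, at -0.80 ± 0.18 and Ndufa3 at -0.97 ± 0.28 (adjusted p = 0.00281 and 0.0119). The call of Ndufa3 was lost with the block in the 7 libraries and without 90C. Of 105 solute carriers 16 rose and 16 fell (median -0.08), shares near those over all genes. Without 90A 10 rose, and with upper quartile scaling 25 fell. Slc16a1, a lactate and pyruvate carrier gene, rose by 0.79 ± 0.17 and Slc11a2, an iron importer gene, by 1.00 ± 0.21 (adjusted p = 0.00215 and 0.0015). Slc38a6 fell (-0.99 ± 0.16, adjusted p = 0.000221).

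In the YAP, SRF and cytoskeleton list 3 of 19 rose and 3 fell, shares near the 16.7% and 13.6% over all genes. With the block over all libraries, or without 90B, 5 fell. Ccn2, a YAP target gene, stood at 67.6, 73.7, 67.0 and 69.8 CPM in 60A to 60D and 228, 121 and 129 CPM in 90A to 90C (1.19 ± 0.25, adjusted p = 0.0015). Amotl2, another target whose product restrains YAP, stood at 210.5, 194, 235 and 135 CPM in 60A to 60D and 74.2, 83.5 and 75.5 CPM in 90A to 90C (-1.32 ± 0.24, adjusted p = 0.00046). Ccn2 was thus higher and its relative Ccn1, described above, lower in every T90 library. Of 14 glucocorticoid receptor targets 2 rose (1 without 60C or 90C) and 3 fell (median -0.23). These shares were 14.3% and 21.4%, beside 16.7% and 13.6% over all genes. In the 7 libraries 6 fell with the block and 5 without it. The kinase gene Sgk1 of this list stood at 321, 362, 274 and 377 CPM in 60A to 60D and 779.7, 708 and 783 CPM in 90A to 90C (1.18 ± 0.18, adjusted p = 0.000105). Pik3r1, a regulatory subunit gene of PI3 kinase on the same list, stood at 509, 472, 538 and 449 CPM in 60A to 60D and 188, 273 and 258 CPM in 90A to 90C (-1.04 ± 0.17, adjusted p = 0.000241). Among 16 circadian clock genes 3 rose and 5 fell (median -0.10, of changing sign under other settings). Without 90A 2 fell, near the 13.6% over all genes, and 3 fell without 60A, 60C or 90C or with GC and length offsets. With the block in the 7 libraries 5 rose. Clock stood at 212, 219, 198 and 232 CPM in 60A to 60D and 379.6, 314 and 387 CPM in 90A to 90C (0.74 ± 0.12, adjusted p = 0.000133), while the repressor gene Bhlhe41 fell by 1.38 and Dbp fell by 1.41 on the log2 scale (adjusted p = 8.21e-05 and 0.0047). In the matrix and integrin list 3 of 36 rose and none fell by the edgeR test. The raised share of 8.33% was below the 16.7% over all genes. With the block in the 7 libraries 5 rose and 1 fell. Itgav, the integrin alpha V gene, stood at 94.1, 105, 99.1 and 106 CPM in 60A to 60D and 154, 166 and 215 CPM in 90A to 90C (0.82 ± 0.11, adjusted p = 4.32e-05).

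The changes differed by gene composition as well. The median GC content was 47.0% in raised genes, 51.3% in fallen genes and 49.3% over all genes, and across 8049 genes the log2 fold change had a Spearman rho of -0.212 with GC content and 0.0677 with exon length, as a description across genes that share the same libraries. Of 774 genes with at most 42% GC 29.7% rose and 7.24% fell, and of 617 genes above 58% GC 7.29% rose and 20.4% fell. The GC slopes of the libraries given above moved with the time label, except that 90B stood between the groups. With GC and length offsets in the fit 2342 genes were called (1283 raised and 1059 fallen), of which 2023 kept their call and direction, and 154 of the 161 called genes named by rule kept theirs. By annotation, 1292 of 7641 protein coding genes rose and 1064 fell, and of 51 lincRNA genes 10 rose and 6 fell. Over all genes 16.7% rose and 13.6% fell.

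**Figure D5:**
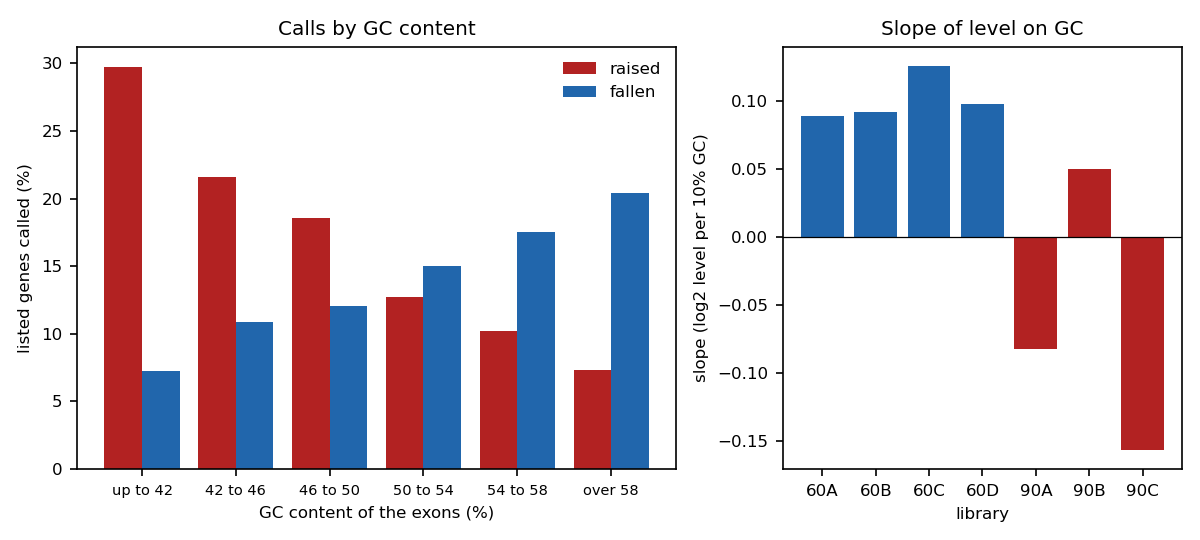
The left panel shows the percent of genes raised and fallen from T60 to T90 in bins of GC content. The right panel shows, for each of the 7 libraries, a slope per 10% of GC. It is the slope of log2 expression relative to each gene's mean over all 22 libraries. Raised genes go from 29.7% in the lowest bin to 7.29% in the highest and fallen genes from 7.24% to 20.4%, and the slope is positive in the T60 libraries and in 90B and negative in 90A and 90C.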

How the data were processed

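The deposited table gives whole-number counts per Ensembl gene for 22 bulk libraries, per the file headers. Its normalized columns hold a score, which the authors made from the counts with a single size factor for each library and rounded to whole numbers (recovered to within 0.5), used as an alternative scaling. Per the submitters' processing notes the build is mm10, and the tools named are featureCounts 1.4.5-p3, DESeq2 1.18.1 and cutadapt 1.11. The aligner, annotation and strand setting were not given in the sources used here. Weakly expressed genes are not in the table. All library columns matched a labelled time point, and 0 were left unmatched.

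Counts were tested with edgeR 4.0.16 (R 4.3.3). The quasi-likelihood fit used TMM factors and all 22 libraries, with time point as a factor and a common biological coefficient of variation of 0.192. P-values were adjusted by Benjamini-Hochberg over 8059 genes, and genes under 0.05 were called. Standard errors (SE) are each fold change's absolute log2 value divided by the root of its F statistic. TMM takes most genes as unchanged, so a shift shared by most genes could not be seen. The code was tested on simulated data. Of the identifiers, 8049 matched GENCODE vM21 (GRCm38), which gave names, positions and exons.

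Libraries were paired by letter, and the letters come from the column names. Deviations of same-lettered T60 and T90 libraries correlated at 0.235, 0.178 and 0.226 for A, B and C, all over 0.1. The highest correlation with another letter was 0.107 for A, 0.180 for B and 0.0159 for C. For A and B this was also over 0.1, and for B it was slightly above its own. The threshold of 0.1 therefore does not separate shared from different letters, and true pairing is not established. The letter as a block was an alternative, as were other scalings and filters, DESeq2 1.42.0, limma-voom (limma 3.58.1), fits to fewer libraries, and leaving out each library. Background subtraction was also tried. GC and length offsets, and background subtraction limited to the 7 libraries, were chosen after seeing the data. The 6 genes of the background measure were also chosen after their values were seen.

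The comparison and the gene lists were chosen with earlier results of these data known. Genes were named by rule: the 15 raised and 15 fallen genes with the largest change among called genes whose libraries do not overlap and that reach a mean of 20 CPM in the higher group, up to 6 called members of a list with the smallest p, and a set of activation, early and stress genes. Uncalled list members outside this rule (the Notch receptors, Rbpj, Heyl, Hey1, Rela, Rel, Nfkbia, Atf4 and Ppp1r15a) were chosen after their values were seen.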

Additional observations from a re-analysis of the deposited data

Results flagged for a closer look

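In each of 168 genes named by rule, the 4 T60 libraries were checked for a library far from the other 3, and 3 genes had one. Cct8, a chaperonin subunit gene, stood at 107 CPM in 60A, below the other T60 libraries by a gap of 0.95 of their range. Maml1, the Notch co-activator gene, stood at 63.2 CPM in 60C (0.897 of the range), and Myc at 386 CPM in 60C (0.908 of the range). The 3 genes were raised at T90, and in each the distant library was the lowest at T60. Chance flags about 1 in 20 groups, which is more than the number seen. Groups of 3, such as T90, were not checked.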

How the results depend on the processing

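After background subtraction across all 22 libraries 237 genes were called (158 raised and 79 fallen), 62 of them at least 2-fold, and the common biological coefficient of variation was 0.525 against 0.192. Of 160 named calls tested there 35 were kept and 125 were lost. Among the lost were Pax7, Myc, Egr1, Hes1, Cd44, Oxtr and Socs3, and among the kept Fos, Jun, Fosl1, Myod1, Gas1 and Hmox1. The losses given beside single genes, except Keap1, and the counts beside most lists leave this setting out. In the 7 libraries alone 2216 genes were called after subtraction (coefficient 0.193), and 153 of the 160 named calls were kept. Leaving out 1 library at a time gave 1621 to 2479 called genes, 882 to 1332 raised, 739 to 1147 fallen and 197 to 407 changed at least 2-fold. The lowest counts called and raised came without 90A, which also lost 39 of the 161 calls of named genes, and the highest 2-fold count came without 90B. With the library letter as a replicate block 2507 genes were called over all libraries, and 2414 (367 at least 2-fold) in the 7 libraries. Of the 161 named calls 4 were lost with the block over all libraries, and in the 7 libraries 8 were lost without the block and 10 with it. Atf3 was called in these 3 fits. Upper quartile scaling gave 981 raised and 1608 fallen genes. Of the uncalled genes some changed sign. Hspa1b went to 0.046 with GC and length offsets and ran from -0.21 to 0.035 over the left-out libraries. Fosl2 went to -0.063 with upper quartile scaling and ran from -0.046 to 0.11. Myog ran from -1.36 to 0.32 and Ccnd1 from -0.34 to 0.081. The cause was not tested. Over the whole table, the counts of called and of raised genes moved by over 1.5 times only after background subtraction across all 22 libraries and without 90A. The fallen count moved that far only after this subtraction, and the 2-fold count after it and without 90B. Counts within lists moved more, as given beside them. The limits are few libraries, and weak genes such as Myog, where a few reads set the fold change. Among the 7 libraries of the step 90A carries the highest background, at 0.274 CPM per kilobase. All T0, T15 and T30 libraries, which are also in the main fit, lay above it, the lowest being 15B at 0.724. Of the T120 libraries 120B also lay above it, at 1.44. The part of these libraries in the loss of calls after subtraction across all 22 libraries was not tested.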

Other observations

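Some gene groups were gathered by symbol after the values of the step were seen, and are given as counts without a test, beside 16.7% raised and 13.6% fallen over all genes. Genes of the centrosome and cilium, the microtubule-organising structures, fell in 22 of 63 cases and rose in 4 (median log2 fold change -0.31). Ift81, a cilium transport gene, stood at 31.4 ± 4.95 CPM at T60 and 15.8 ± 0.819 at T90 (mean ± SD, n = 4 and 3), a log2 fold change of -0.99 ± 0.13 (adjusted p = 4.48e-05 by edgeR). Cep131, a centriolar satellite gene, changed by -1.44 ± 0.24 (adjusted p = 0.000238).

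Small GTPases of the Rab and Arl families, which steer vesicles, rose in 16 of 45 cases and fell in 3 (median 0.27). Rab8b stood at 98.8 ± 25.2 CPM at T60 and 252 ± 44.2 at T90 (1.35 ± 0.21, adjusted p = 0.000113). Nuclear pore and transport receptor genes rose in 13 of 43 cases and fell in 1, with the importin gene Ipo5 at 0.80 ± 0.15 and the nucleoporin gene Nup153 at 0.68 ± 0.12 (adjusted p = 0.000716 and 0.000465). Of 44 DEAD-box and DEAH-box helicases 15 rose and 4 fell. Of 36 histone methyltransferases and demethylases 10 rose and 5 fell, with Kdm7a at 128 ± 11.3 CPM at T60 and 264 ± 30.2 at T90 (1.04 ± 0.13, adjusted p = 2.64e-05). Of 68 F-box proteins and ubiquitin-specific proteases 20 rose and 11 fell. Usp32, a deubiquitinase gene, stood at 82.3 ± 11.5 CPM and 194 ± 29.1 (1.24 ± 0.11, adjusted p = 8.45e-07), and Fbxo32, a ubiquitin ligase gene of muscle wasting, at 55.5 ± 9.47 and 126 ± 6.61 (1.18 ± 0.19, adjusted p = 0.00019). Zinc finger proteins, with 33 raised and 31 fallen of 198, and mitochondrial ribosomal proteins, with 4 raised and 5 fallen of 40, went both ways.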
